A study of Homo sapiens with 17 samples.

Results

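The genes described are 39 genes of lysosomes and endosomes, listed by name and found by Ensembl identifier, 39 of 39, among the 63677 genes counted in each library. They comprise 9 genes of membrane proteins, 10 of proteases and a thiol reductase, 9 of glycan and lipid hydrolases, 4 of cholesterol and ion transport, 4 of the proton pump and 3 of regulators. The list was drawn up with the response of Karpas-422 to A-485 in view, because LAMP3 and LAPTM5 were much lower there. Values of the 39 genes in that comparison are therefore given as a description, without p-values: where a gene is said to be called there, the call comes from a fit over all genes and supports nothing about the list. The comparison of the knockout clones was tested.

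The libraries are of total RNA from Karpas-422 and WSU-DLCL2, established human lines of diffuse large B cell lymphoma. The groups, with 3 libraries each, were Karpas-422 and WSU-DLCL2 treated for 48 h with A-485, an inhibitor of the histone acetyltransferases p300 and CBP, then 3 WSU-DLCL2 clones labelled BCL11A knockout, and untreated Karpas-422 and untreated WSU-DLCL2. The labels name no unedited clone, a label entry of the untreated WSU-DLCL2 cells writes DMSO, and whether vehicle was added is otherwise not given in the sources used here. Nothing in the labels says that replicates came from separate cultures, so each p-value is set against differences among libraries that may be technical.

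Lysosomes are acidic compartments in which hydrolases degrade proteins, glycans and lipids that arrive by endocytosis or autophagy. A proton pump, the vacuolar ATPase, keeps them acidic, heavily glycosylated membrane proteins such as LAMP1 and LAMP2 line them, and cholesterol and ions leave through dedicated transporters. In B cells the late endosomal compartments also cut antigen for loading onto MHC class II, a step in which cathepsin S and the thiol reductase IFI30 take part. The transcription factors TFEB and TFE3 activate many of these genes through an E-box with the core CACGTG, and the longer CLEAR element is TCACGTGA with a G before it and a C after it.

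Promoter windows from RefSeq (GRCh38.p14, 250 bases before to 50 after the gene start) were matched for 28 of the 39 genes. The windows of 5 genes are shown because their values differ most in kind: LAPTM5 was much lower under A-485, CTSA and ATP6V0D1 were higher, LAMP1 differed little, and LYST was the listed gene of lowest p in the clones. They lie at chr1:30757725-30758024 (minus strand, LAPTM5), chr20:45891085-45891384 (plus strand, CTSA), chr16:67481108-67481407 (minus strand, ATP6V0D1), chr13:113296989-113297288 (plus strand, LAMP1) and chr1:235883664-235883963 (minus strand, LYST). Each is written 5′ to 3′ on the strand of its gene, with CACGTG in capitals.
LAPTM5: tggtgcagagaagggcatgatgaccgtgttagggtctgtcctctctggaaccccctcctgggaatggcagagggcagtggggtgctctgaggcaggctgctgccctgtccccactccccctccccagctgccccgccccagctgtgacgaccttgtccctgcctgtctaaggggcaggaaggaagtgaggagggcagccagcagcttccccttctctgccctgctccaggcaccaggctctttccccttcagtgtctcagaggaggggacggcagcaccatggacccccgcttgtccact
CTSA: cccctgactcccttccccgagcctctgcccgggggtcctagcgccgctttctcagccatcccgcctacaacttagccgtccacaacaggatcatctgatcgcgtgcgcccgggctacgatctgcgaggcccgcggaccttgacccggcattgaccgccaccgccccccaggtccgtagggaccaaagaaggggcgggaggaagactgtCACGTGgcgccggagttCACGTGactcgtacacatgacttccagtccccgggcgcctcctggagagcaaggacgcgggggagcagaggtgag
ATP6V0D1: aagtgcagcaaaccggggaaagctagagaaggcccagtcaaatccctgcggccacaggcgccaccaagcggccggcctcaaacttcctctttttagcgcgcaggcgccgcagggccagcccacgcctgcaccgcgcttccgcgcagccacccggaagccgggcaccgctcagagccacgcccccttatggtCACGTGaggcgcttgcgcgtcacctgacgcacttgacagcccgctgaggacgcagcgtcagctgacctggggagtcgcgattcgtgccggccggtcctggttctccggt
LAMP1: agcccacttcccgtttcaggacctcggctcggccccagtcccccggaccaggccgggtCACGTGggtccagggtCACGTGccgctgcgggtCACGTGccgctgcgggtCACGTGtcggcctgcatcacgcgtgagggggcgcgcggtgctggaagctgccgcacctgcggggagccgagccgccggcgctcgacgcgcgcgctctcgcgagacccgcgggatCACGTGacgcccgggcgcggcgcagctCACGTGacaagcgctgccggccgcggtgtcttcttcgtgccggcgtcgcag
LYST: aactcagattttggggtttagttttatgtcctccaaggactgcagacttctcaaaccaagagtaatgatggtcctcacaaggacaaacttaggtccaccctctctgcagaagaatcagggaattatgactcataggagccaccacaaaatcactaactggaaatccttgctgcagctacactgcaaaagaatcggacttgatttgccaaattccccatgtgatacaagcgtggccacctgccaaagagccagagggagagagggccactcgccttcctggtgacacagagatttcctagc

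The core CACGTG, which reads the same on both strands, stood in 9 of the 28 matched windows (32.1%), against 7.26% of all 35116 windows in the table. TCACGTGA, which contains the core, stood in 6 windows (21.4%, against 0.980% of all windows), and the CLEAR element, which contains both shorter forms, in 2 (7.14%, against 0.353%), those of GAA and MCOLN1. LAMP1 held 6 copies of the core, CTSA, GAA, CLN3 and MCOLN1 held 2 each, and ATP6V0D1, CD63, CTSD and IFI30 held 1 each. The windows of LAPTM5 and LYST held none. In Karpas-422 the genes with a core did not share a direction: CTSA and ATP6V0D1 were called higher, CD63 was called lower, LAMP1, CLN3, GAA and MCOLN1 were not called, and CTSD and IFI30 had too few counts.

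The libraries were of 2 kinds. The 9 libraries of Karpas-422 and of WSU-DLCL2 with A-485 held 6689320 to 8897051 counts in genes, and the 6 of the clones and untreated WSU-DLCL2 held 21233752 to 37286727. ACTB, which encodes cytoplasmic actin, was almost uncounted in the shallow kind. It had 3.20 to 31.9 CPM there (counts scaled to a common library total), against 3432 to 9994 CPM in the deep kind. EP300, which encodes p300, went the other way, with 1045 to 1901 CPM in the shallow kind and 191 to 302 CPM in the deep kind. A low CPM in a shallow library is therefore not read as a low level, and WSU-DLCL2 with A-485 is set only beside the Karpas-422 libraries. Within Karpas-422, reads outside genes made up 8.25% to 8.91% of the reads with A-485 and 3.61% to 4.54% without it, and ACTB had 16.4 to 18.7 CPM with A-485 and 3.20 to 6.23 CPM without it. The 8 B cell markers were detected in each group, with summed levels of 2811 to 3207 CPM in A-485 and 2604 to 2905 CPM in untreated Karpas-422, and of 4483 to 5176 CPM in the clones and 4832 to 6686 CPM in untreated WSU-DLCL2. Myeloid cells are rich in lysosomes: of the 11 myeloid markers 6 were at 0 in both Karpas-422 groups, MPO, CD163 and FCGR3A among them, and the list summed to 43.5 to 48.9 CPM with A-485 and 32.2 to 39.9 CPM without it. In Karpas-422 the 7 T and NK cell markers summed to 549 to 588 CPM with A-485 and 637 to 682 CPM without it. The 7 epithelial and fibroblast markers summed there to 186 to 203 CPM with A-485 and 383 to 431 CPM without it. CD3G led the first of these lists and DCN the second. In WSU-DLCL2 these sums were at most 17.6 and 74.5 CPM, and the origin of the Karpas-422 counts was not tested.

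BCL11A itself had 58.8, 69.6 and 51.9 CPM in clones 1 to 3 and 46.8, 45.7 and 73.5 CPM in untreated replicates 1 to 3, so the groups overlapped. A count over the whole gene cannot show a small edit, and the knockout labels were not checked by it. Untreated WSU-DLCL2 replicate 3 stands apart: its title says untreated, its treatment entry says A-485 for 48 h, and its 3 sequencing runs share 1 count file. It was grouped by title. Its counts differed from those of replicates 1 and 2 with a chi-square per gene of 201 and 212, against 2.66 between replicates 1 and 2. Of 36 lysosome and endosome genes with enough counts, 10 were over 1.5 times and 7 under 1/1.5 of the mean of replicates 1 and 2 in it, led by LAMP3 at 6.14 times and LAPTM5 at 2.86 times. Results of the clones are given with all libraries and then without this one.

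In Karpas-422, A-485 went with much lower LAMP3 and LAPTM5 and with a mixed picture elsewhere. CTSC and CTSZ were called lower, and ATP6AP1, CTSA, TPP1, HEXA, ATP6V0D1 and GUSB were called higher. Genes of the same role were called in both directions for membrane proteins, proteases, hydrolases and the pump. Outside the proteases, 1 of the directions rested on 1 gene, SCARB2, NAGLU or ATP6V1H, whose call was lost in some alternatives. Levels below are CPM after TMM scaling, which sets libraries to a common level of most genes, and fold changes are log2 of A-485 over untreated with their standard error (SE). Of the 39 genes, 30 had enough counts in these 6 libraries, and edgeR's quasi-likelihood test at an adjusted p of 0.05 called 9 higher, 11 lower and 10 neither. Of all 11846 genes, 71.4% were called, 37.6% higher and 33.7% lower, and the list was chosen on this contrast, so nothing is read from its count. Changes of at least 2-fold were called for 5 of the 30 upward and 3 downward, against 22.7% and 11.8% of all genes. The groups did not overlap for 21 of the 30, against 74.7% of all genes, and the median log2 fold change was -0.05 for the 30 and 0.08 for all genes. With library sizes as the only scaling, all genes had a median of 0.49 and the calls split into 14 higher and 5 lower in place of 9 and 11 (6465 and 2290 in place of 4459 and 3998 for all genes). Fewer cells of a type and less RNA per cell cannot be told apart in these bulk libraries.

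**Figure D1:**
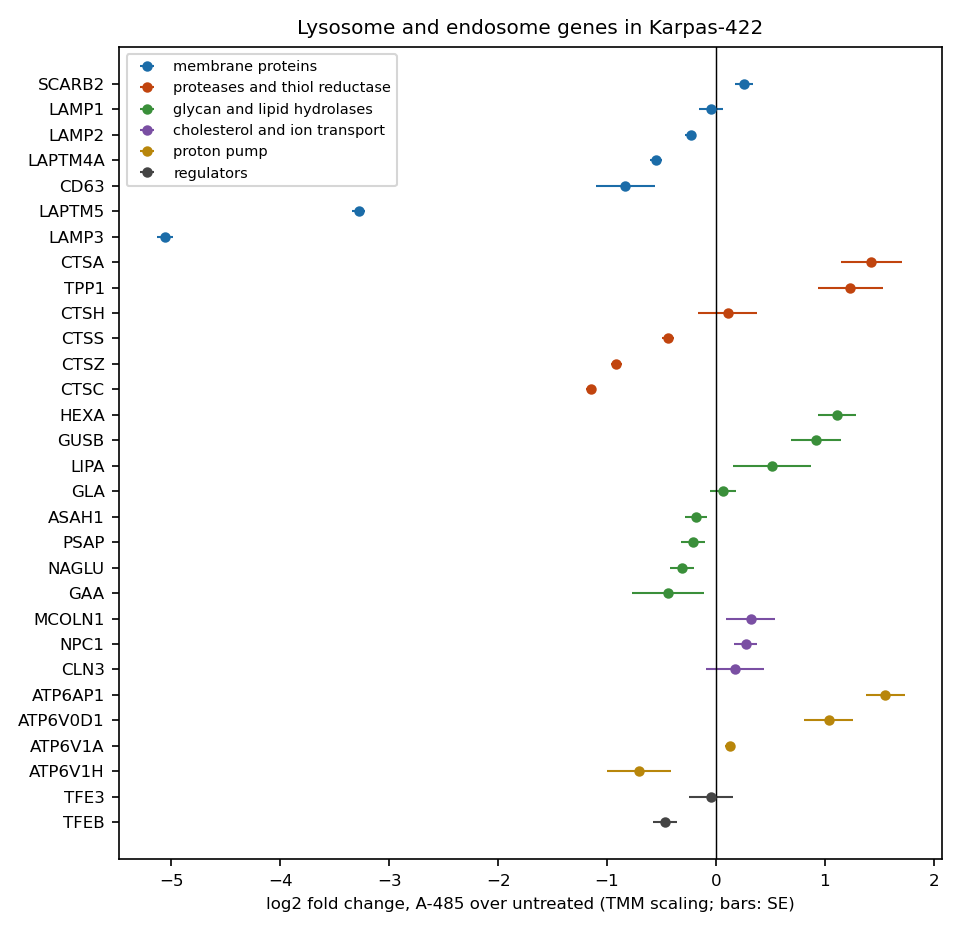
Log2 fold change of the 30 genes with enough counts in Karpas-422, A-485 over untreated (x axis, bars are SE, 3 libraries per group), by role. LAMP3 at -5.06 and LAPTM5 at -3.28 stand to the left of the rest, which span -1.15 to 1.55.

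Among the membrane proteins 1 was called higher and 5 lower of 7 with enough counts, and the 5 include LAMP3 and LAPTM5, whose values chose the list. LAMP3 (DC-LAMP), a glycoprotein of late endosomal and lysosomal membranes best known from mature dendritic cells, had 12.0, 13.0 and 12.5 CPM with A-485, against 387, 432 and 435 CPM untreated. The A-485 libraries lay far below each untreated library, with a log2 fold change of -5.06 ± 0.08. LAPTM5, a lysosomal membrane protein of blood cells that in mouse and human lymphocytes takes part in lowering antigen receptor levels, had 57.0, 56.1 and 61.3 CPM with A-485, against 542, 592 and 562 CPM untreated. Here too the groups lay far apart, with a log2 fold change of -3.28 ± 0.06. In counts, LAMP3 rests on 108 to 132 reads per A-485 library and on 2569 to 2869 per untreated library.

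The relatives of these genes differed far less. LAPTM4A, a broadly expressed relative of LAPTM5, was called lower with a log2 fold change of -0.55 ± 0.06, at 200 ± 6.62 CPM with A-485 and 293 ± 17.6 CPM untreated (SD over 3 libraries). LAMP1, a main glycoprotein of the lysosomal membrane, was not called, at 22.4 ± 0.29 CPM with A-485 and 23.1 ± 2.28 CPM untreated. LAMP2, its partner and a receptor of chaperone-mediated autophagy, was called lower by 0.23 ± 0.05 on the log2 scale, but higher at 0.18 under scaling by library sizes alone. The tetraspanin CD63, a membrane protein of late endosomes and exosomes, was called lower (-0.83 ± 0.27) at 1.62 to 3.00 CPM with A-485 and 3.38 to 4.04 CPM untreated, a call lost in 4 of 11 alternatives, among them leaving out A-485 replicate 2 or 3. SCARB2, the receptor that carries glucocerebrosidase to lysosomes, was called higher (0.26 ± 0.09), a call lost in 3 of 11 alternatives: without A-485 replicate 2, without untreated replicate 2 and with DESeq2.

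Among the proteases 2 were called higher and 3 lower of 6 with enough counts. CTSC, a cathepsin that activates the serine proteases of granules, had 271, 269 and 270 CPM with A-485, against 608, 591 and 596 CPM untreated, a log2 fold change of -1.15 ± 0.05. The replicates of each group lay close together and the groups did not overlap. CTSZ, a carboxypeptidase, was lower by 0.91 ± 0.05 on the log2 scale, and CTSS, the cathepsin that trims the invariant chain of MHC class II, by 0.44 ± 0.06, although CTSS moved to -0.03 and was not called when scaled by library sizes alone. CTSH, an aminopeptidase, was not called (0.11 ± 0.27).

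The proteases called higher were of low count. CTSA, which protects β-galactosidase and neuraminidase in a complex, had 10.7, 11.6 and 9.13 CPM with A-485, against 6.34, 2.28 and 2.71 CPM untreated. TPP1, a tripeptidyl peptidase, had 3.56, 2.95 and 2.43 CPM with A-485, against 1.48, 1.21 and 1.02 CPM untreated. The groups did not overlap for either gene, with log2 fold changes of 1.42 ± 0.28 for CTSA and 1.23 ± 0.30 for TPP1, and untreated replicate 1 was the highest of the untreated libraries for both. These values rest on few reads, 15 to 47 per untreated library for CTSA and 6 to 11 for TPP1. TPP1 passed the filter through the A-485 libraries, the group in which it is high, so its call and its fold change carry that choice. ACTB and the reads outside genes, given above, were higher with A-485 as well, and their part in the difference was not tested.

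Among the glycan and lipid hydrolases and their cofactors 2 were called higher, 1 lower and 5 neither, of 8. HEXA, the α subunit of β-hexosaminidase, had 9.57, 9.73 and 9.63 CPM with A-485, against 5.12, 4.71 and 3.38 CPM untreated, a log2 fold change of 1.11 ± 0.18 without overlap. GUSB, β-glucuronidase, was also called higher (0.92 ± 0.23). NAGLU, which degrades heparan sulfate, was called lower (-0.31 ± 0.11), but its groups overlapped, the call was lost without A-485 replicate 2, A-485 replicate 3 or untreated replicate 1, and it stood at 0.094 under scaling by library sizes alone. The 5 not called were GLA and GAA, α-galactosidase and acid α-glucosidase, LIPA, the acid lipase, ASAH1, acid ceramidase, and PSAP, the precursor of the saposins that present lipids to hydrolases, with log2 fold changes between -0.44 and 0.51; ASAH1 and PSAP changed sign under scaling by library sizes alone.

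The proton pump gave 3 calls upward and 1 downward of 4. ATP6AP1, an accessory subunit needed for assembly of the pump, had 25.2, 25.2 and 23.5 CPM with A-485, against 11.5, 7.29 and 5.92 CPM untreated, a log2 fold change of 1.55 ± 0.18. ATP6V0D1, a subunit of the membrane part, had 7.35, 7.47 and 6.79 CPM with A-485, against 4.31, 2.13 and 4.06 CPM untreated, a log2 fold change of 1.03 ± 0.22. For both genes each A-485 library lay above each untreated one. ATP6V1A, the catalytic subunit, was at 0.13 ± 0.05, a call lost in 7 of 11 alternatives, and ATP6V1H, a regulatory subunit of the cytosolic part, at -0.71 ± 0.29 with overlapping groups, a call lost in 6 of 11. A difference of direction among these 4 subunits thus rests on ATP6V1H alone.

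Of the transporters, NPC1, which exports cholesterol from lysosomes, was called higher (0.27 ± 0.11), a call lost in 9 of 11 alternatives. CLN3, a lysosomal membrane protein lost in a juvenile neuronal storage disease, and MCOLN1, a calcium channel, were not called (0.17 ± 0.27 and 0.32 ± 0.22). Of the regulators TFEB was called lower by 0.47 ± 0.11 on the log2 scale, although it moved to -0.06 and was not called when scaled by library sizes alone, and TFE3 was not called (-0.04 ± 0.20, but 0.36 under scaling by library sizes alone).

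The other 9 genes had too few counts in Karpas-422 for the test: LAPTM4B, CD68, CTSB, CTSD, CTSL, IFI30, SMPD1, NPC2 and LYST. CTSL, a cathepsin, had 0 counts in each of the 15 libraries, and LAPTM4B had at most 1. CTSB, a cathepsin with a broad role in protein turnover, had 9 to 16 counts with A-485 and 1 to 4 untreated, and LYST, a large cytosolic regulator of lysosome size that is lost in Chediak-Higashi syndrome, had 10 to 15 with A-485 and 3 to 8 untreated. A count of 0 over the 3 libraries of a group allows, at 3 counts, up to 0.119 CPM in Karpas-422 with A-485 and 0.131 CPM untreated, for counting error only. NPC2, the soluble partner of NPC1, had 1 or 2 counts per library with A-485 and at most 1 untreated, and 1 in each WSU-DLCL2 library with A-485. The deep libraries held 300 to 600 counts of NPC2 in the clones and 206 to 602 in untreated WSU-DLCL2. In these data the shallow WSU-DLCL2 libraries are also the A-485 ones and Karpas-422 has no deep library, so kind of library, treatment and line cannot be told apart for this gene.

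The number of transcripts annotated for a gene in GENCODE 29, a property of the annotation and not of these cells, moved with the direction in Karpas-422. Of the 11 genes with 1 to 6 transcripts, 1 was called higher and 7 lower, against 1742 higher and 2428 lower of all 5800 genes with as many. Of the 6 with 7 to 10 transcripts 1 was called higher and 1 lower, against 877 and 765 of 2371. Of the 9 with 11 to 20 transcripts 5 were called higher and 3 lower, against 1280 and 590 of 2588, and of the 4 with over 20 transcripts 2 were called higher and 0 lower, against 428 and 112 of 739. LAMP3 has 5 and LAPTM5 3 annotated transcripts, while ATP6V0D1 has 18, HEXA 16, CTSA 20 and TPP1 36. All 11846 genes had medians of -0.13, 0.10, 0.39 and 0.66 for 1 to 6, 7 to 10, 11 to 20 and over 20 transcripts, where the listed genes had -0.31, 0.19, 0.27 and 0.21. The share of reads without a unique alignment was 48.8% to 49.0% with A-485 and 54.5% to 55.5% untreated, and its part in these differences was not tested.

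**Figure D2:**
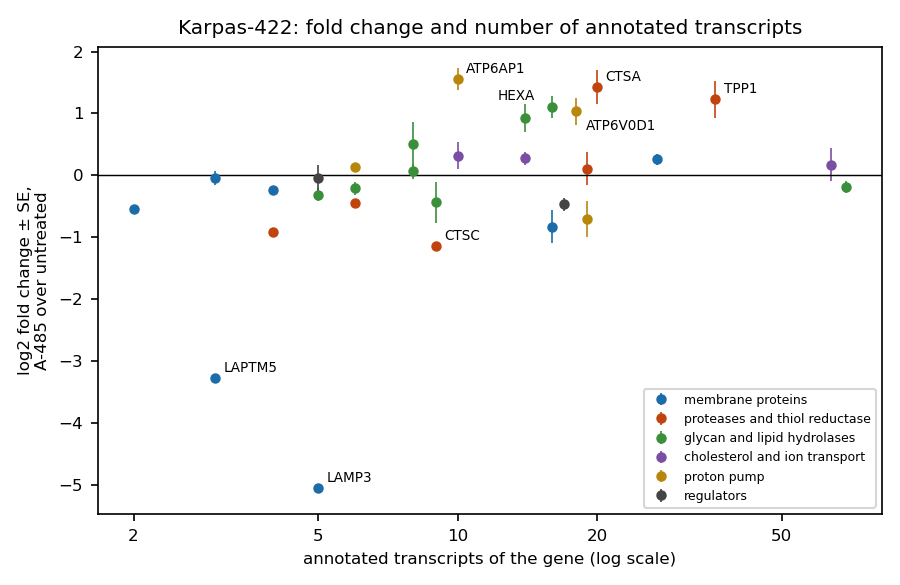
Log2 fold change with SE of the 30 genes in Karpas-422, A-485 over untreated (y axis), against the number of annotated transcripts of the gene (x axis, log scale), coloured by role. The genes at 1 or more on the log2 scale have 10 or more transcripts, and LAMP3 and LAPTM5 have 5 and 3.

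The wider pathway was followed through 133 further genes, of which 117 had enough counts in Karpas-422. Of these, 55 were called higher and 26 lower, where 37.6% of all genes were higher and 33.7% lower. Some of the 55 passed the filter through the A-485 libraries, the group in which they are high. TCIRG1, ARSA, FNIP1, VPS26A and MAP1LC3B were among them, at untreated means of 0.38, 0.39, 0.50, 0.74 and 1.19 CPM. This count and those by transcript number and by list below carry that choice, so nothing is read from them. The 117 had a median log2 fold change of 0.22, against 0.08 for all genes. Of the 32 with 1 to 6 annotated transcripts, 10 were called higher and 14 lower. The calls were 16 and 9 of 37 with 7 to 10, 24 and 2 of 39 with 11 to 20, and 5 and 1 of 9 with over 20. Calls of all genes by transcript number are given above, and the part of that number here was not tested. Delivery to lysosomes gave 10 higher and 2 lower of 18. The list of MiT factors and autophagy gave 8 higher and 1 lower of 11, all of them autophagy genes. Its MiT factors, MITF and TFEC, had too few counts for the test. The ESCRT genes gave 4 and 4 of 14 and the other pump subunits 5 and 5 of 12. Other hydrolases and cofactors gave 12 higher and 3 lower of 26, other channels and transporters 4 and 3 of 10, early and recycling endosomes 8 and 6 of 16, and nutrient sensing 4 and 2 of 10. Scaled by library sizes alone, 76 of the 117 were called higher and 12 lower.

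Among the wider genes of at least 10 CPM in the higher group, the lowest fold changes belonged to TPCN2, a cation channel of lysosomes, at -1.52 ± 0.06 (56.9 ± 1.77 CPM with A-485 and 163 ± 1.82 CPM untreated), and GM2A, the activator that hands ganglioside to β-hexosaminidase, at -1.12 ± 0.06. RAB7A, the GTPase of late endosomes (119 ± 1.32 CPM with A-485 and 237 ± 13.2 CPM untreated), TMEM192, a lysosomal membrane protein (-0.98 ± 0.05), PPT1, a thioesterase (-0.96 ± 0.06), and RAB11A, the GTPase of recycling endosomes (-0.81 ± 0.05), followed. GM2A was lower while HEXA, whose product it serves, was higher. The highest fold changes belonged to GNPTG, a subunit of the enzyme that tags hydrolases with mannose phosphate (2.20 ± 0.42), PDCD6IP (ALIX), a partner of the ESCRT complexes (2.02 ± 0.11), VPS29 of retromer (1.93 ± 0.07), VPS39 of the HOPS tether (1.93 ± 0.12), the lipid kinase PIK3C3 (1.70 ± 0.18) and the pump subunit ATP6V0A1 (1.63 ± 0.14). GNPTG, VPS39 and PIK3C3 averaged at least 10 CPM with A-485 and less untreated, so they passed that limit through the group in which they are high, and the untreated libraries of GNPTG ran from 0.34 to 4.31 CPM.

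WSU-DLCL2 cells with A-485 had libraries of the same shallow kind as Karpas-422. The lines are set side by side on CPM by library total, without a test. Their libraries were not alike in all respects. Unaligned reads made up 14.1% to 14.6% in WSU-DLCL2 with A-485, against 2.51% to 2.86% in Karpas-422. Reads outside genes made up 10.95% to 11.9%, against 3.61% to 8.91% over both Karpas-422 groups. The part of these differences in the values below was not tested. LAMP3 had 1.05, 0.42 and 0.45 CPM in WSU-DLCL2 with A-485, 13.9, 14.8 and 14.3 CPM in Karpas-422 with A-485 and 350, 364 and 370 CPM in untreated Karpas-422. LAPTM5 went the other way between the lines, with 450, 424 and 462 CPM in WSU-DLCL2 with A-485, 65.7, 64.2 and 70.3 CPM in Karpas-422 with A-485 and 491, 499 and 478 CPM in untreated Karpas-422. WSU-DLCL2 with A-485 thus lay below both Karpas-422 groups for LAMP3, and near untreated Karpas-422 but below it for LAPTM5. No untreated WSU-DLCL2 library of this kind is at hand, so these values show no response of WSU-DLCL2 to A-485.

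Over the 39 genes, 32 had enough counts in the A-485 libraries of at least 1 of the lines. WSU-DLCL2 was higher without overlap for 10, lower for 14, and overlapped for 8, against 32.6% higher and 42.6% lower, 75.1% in all, of 12472 genes. HEXA had 3.44, 3.95 and 4.47 CPM in WSU-DLCL2 with A-485 and 11.1 ± 0.05 CPM (SD) in Karpas-422 with A-485. CTSC had 230, 215 and 217 CPM in WSU-DLCL2 and 312, 308 and 310 CPM in Karpas-422, both with A-485. IFI30, the thiol reductase, had 46 to 57 counts per library in WSU-DLCL2 with A-485 and 2 to 4 in both Karpas-422 groups, so it passed the filter through WSU-DLCL2 alone. GAA and LYST, also among the 10, averaged 1.18 and 1.44 CPM in Karpas-422 with A-485 and passed through WSU-DLCL2. CLN3 and LAMP3, among the 14, averaged 1.27 and 0.64 CPM in WSU-DLCL2 with A-485 and passed through Karpas-422. The counts of 10 and 14 carry that choice, so nothing is read from them.

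**Figure D3:**
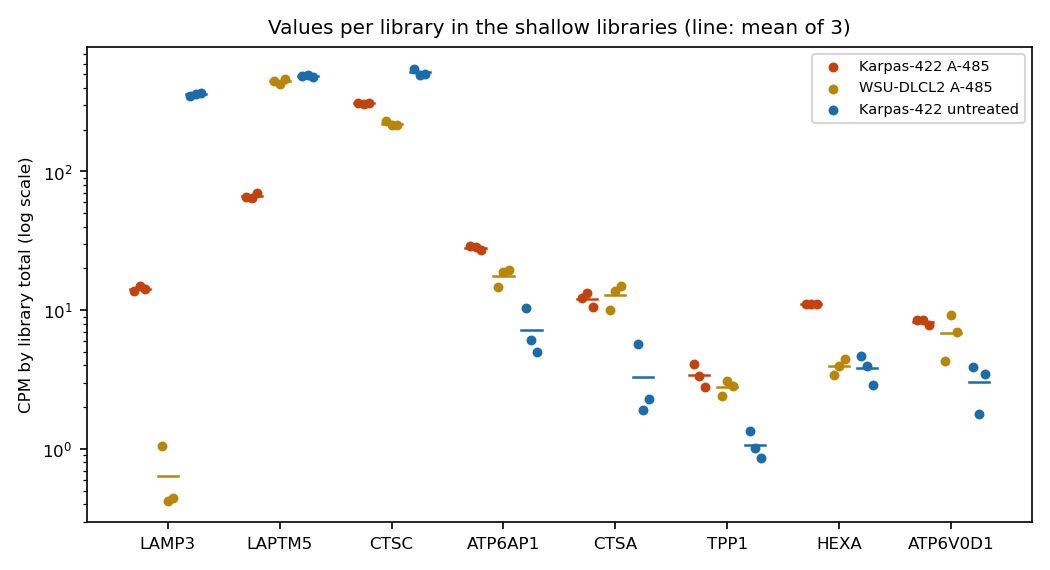
CPM by library total (log scale) of 8 genes in the 9 shallow libraries, with points for libraries and lines for means of 3: Karpas-422 with A-485, WSU-DLCL2 with A-485 and untreated Karpas-422. LAMP3 was lowest in WSU-DLCL2 (0.42 to 1.05 CPM), while LAPTM5 was lowest in Karpas-422 with A-485 (64.2 to 70.3 CPM).

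In the BCL11A knockout clones LYST had the lowest p of the listed genes and SCARB2 the largest fold change, both lower than in untreated WSU-DLCL2, and edgeR called neither with all libraries. Of the 39 genes 36 had enough counts, and edgeR called 0 of them, as it called 0 of 16152 genes (0.00%) with all 3 untreated libraries. At an unadjusted p of 0.05 there were 1117 genes (6.92%), among them 1 listed gene that was higher (2.22% of all genes were) and 4 that were lower (4.70%), and DESeq2 called 315 genes. The median log2 fold change of clones over untreated was -0.06 for the 36 and -0.01 for all genes, and -0.02 and 0.02 without untreated replicate 3. The groups did not overlap for 6 of the 36, against 16.5% of all genes. Leaving out untreated replicate 3 gave 351 called genes of 16607 (2.11%, 0.422% higher and 1.69% lower), among them 1 listed gene, LYST. At an unadjusted p of 0.05 it gave 6 higher and 6 lower listed genes (8.76% and 10.2% of all genes), and 15 of the 36 without overlap (40.3% of all genes).

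**Figure D4:**
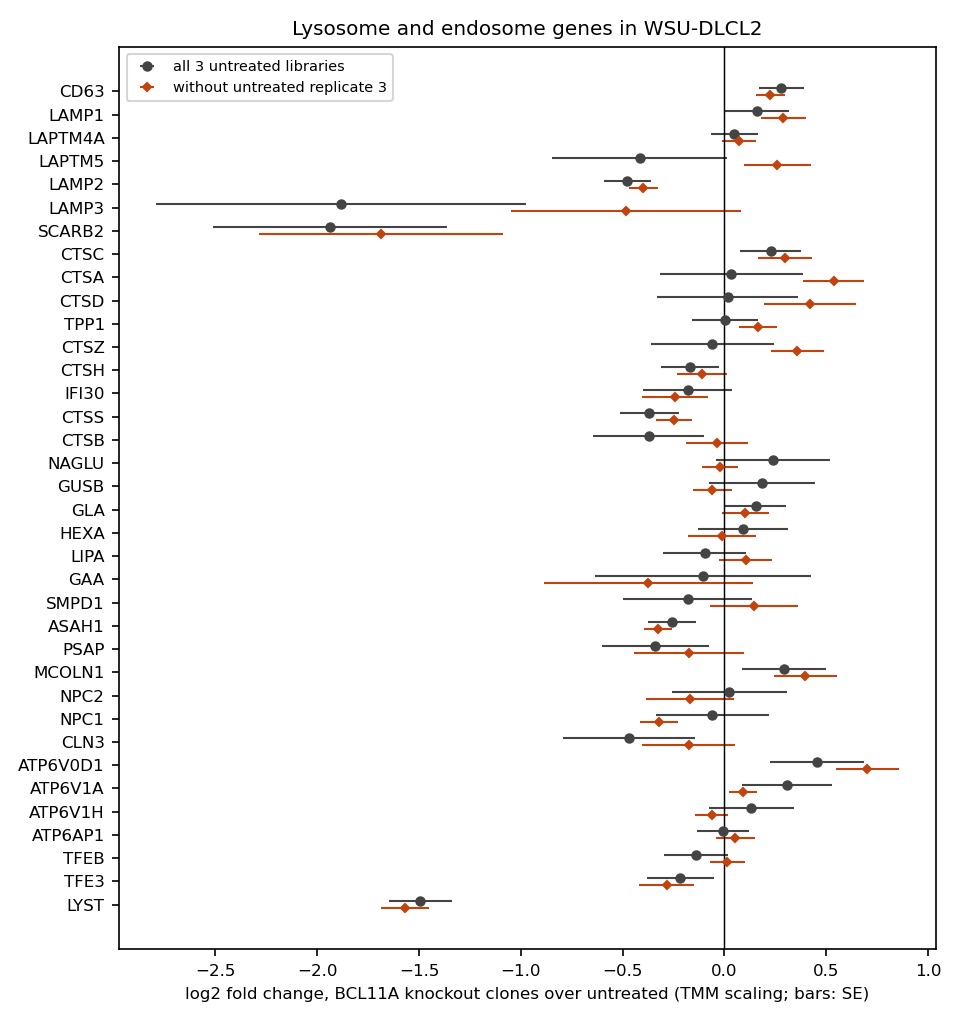
Log2 fold change of 36 genes, BCL11A knockout clones over untreated WSU-DLCL2 (x axis, bars are SE), with all 3 untreated libraries (circles) and without untreated replicate 3 (diamonds). LYST stays at -1.49 and -1.57, while LAMP3 moves between -1.88 and -0.48 and LAPTM5 between -0.42 and 0.26.

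LYST had 14.7, 16.9 and 13.8 CPM in clones 1 to 3, against 47.0, 42.9 and 37.9 CPM in untreated replicates 1 to 3. Each clone lay well below each untreated library, replicate 3 included. The log2 fold change was -1.49 ± 0.16 with all libraries (edgeR adjusted p = 0.107), and -1.57 ± 0.12 without replicate 3 (edgeR adjusted p = 0.0055). DESeq2 with all libraries gave an adjusted p of 2.50e-15. Over the 11 alternatives the fold change stayed between -1.59 and -1.42, and the adjusted p between 2.50e-15 and 0.618.

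Of the membrane proteins SCARB2 and LAMP2 lay lower in each clone. SCARB2 had 4.56, 1.24 and 1.28 CPM in the clones, against 7.75, 7.39 and 11.9 CPM untreated, a log2 fold change of -1.94 ± 0.58 (edgeR adjusted p = 0.512) or -1.69 ± 0.60 without replicate 3 (adjusted p = 0.225). Clone 1 stood between the other clones and the untreated libraries, and without it the fold change was -2.84 (adjusted p = 0.215). LAMP2 had 122, 118 and 111 CPM in the clones, against 152, 157 and 179 CPM untreated, a log2 fold change of -0.48 ± 0.12 (edgeR adjusted p = 0.365) or -0.40 ± 0.07 without replicate 3 (adjusted p = 0.0518). DESeq2 called both with all libraries, at adjusted p = 0.0375 for SCARB2 and 0.0155 for LAMP2. CD63 had 110, 109 and 118 CPM in the clones, against 96.6, 96.1 and 85.0 CPM untreated, a difference without overlap (0.28 ± 0.11, edgeR adjusted p = 0.700), and 0.23 ± 0.07 without replicate 3 (adjusted p = 0.173).

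LAMP3 and LAPTM5, the genes that led the list in Karpas-422, depended on the library that stands apart. LAMP3 had 0.27, 1.07 and 1.19 CPM in the clones, against 0.94, 1.44 and 7.13 CPM untreated, so that its log2 fold change was -1.88 ± 0.91 with replicate 3 and -0.48 ± 0.57 without it. LAPTM5 had 567, 801 and 817 CPM in the clones, against 608, 610 and 1698 CPM untreated, giving -0.42 ± 0.43 with replicate 3 and 0.26 ± 0.16 without it. In both genes replicate 3 was the highest of the untreated libraries and the groups overlapped, and edgeR called neither gene in either fit (adjusted p = 0.774 and 0.689 for LAMP3, 0.883 and 0.444 for LAPTM5).

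**Figure D5:**
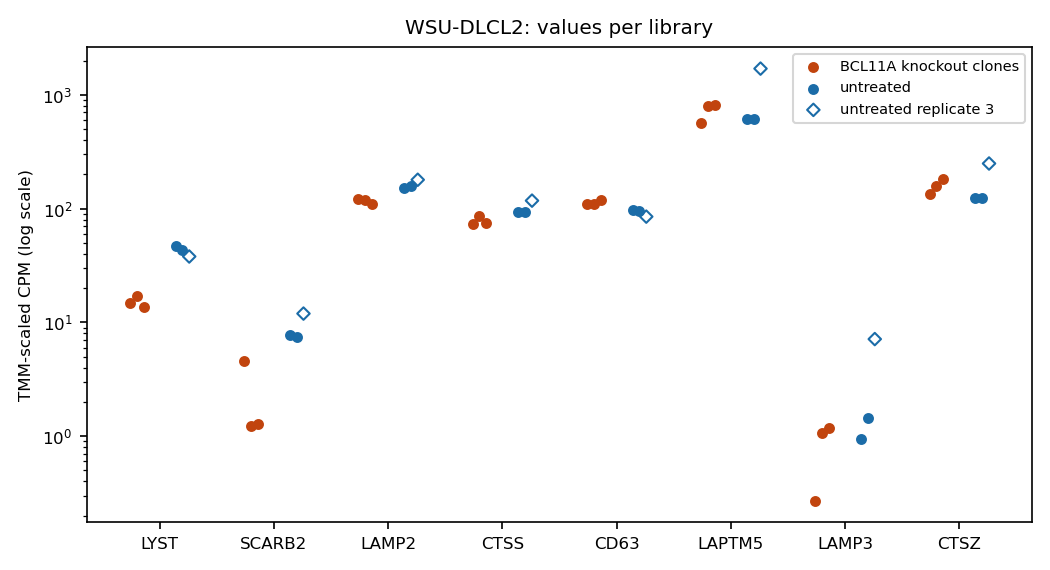
TMM-scaled CPM (log scale) of 8 genes in each library of WSU-DLCL2, BCL11A knockout clones left and untreated right, with untreated replicate 3 as an open diamond. The clones lie below the untreated libraries for LYST (13.8 to 16.9 against 37.9 to 47.0 CPM), while replicate 3 stands above replicates 1 and 2 for LAPTM5, LAMP3 and CTSZ.

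Among the proteases CTSS had 73.7, 86.4 and 75.3 CPM in the clones, against 93.3, 93.2 and 117 CPM untreated (-0.37 ± 0.14, edgeR adjusted p = 0.696), or -0.25 ± 0.09 without replicate 3 (adjusted p = 0.217). Each clone was below each untreated library. CTSA and CTSZ sat near 0 with all libraries (0.03 ± 0.35 and -0.06 ± 0.30) and at 0.54 ± 0.15 and 0.36 ± 0.13 without replicate 3, and edgeR called neither in either fit (adjusted p = 0.145 and 0.216 without it). CTSZ had 249 CPM in replicate 3, against 123 and 125 CPM in replicates 1 and 2. The 5 other proteases with enough counts, CTSB, CTSC, CTSD, CTSH and TPP1, lay between -0.37 and 0.23 with all libraries, and IFI30 at -0.18 ± 0.22. Without replicate 3 these were -0.04 for CTSB, 0.30 for CTSC, 0.42 for CTSD, -0.11 for CTSH, 0.16 for TPP1 and -0.24 for IFI30, none called.

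The 9 hydrolases and cofactors lay between -0.34 (PSAP) and 0.24 (NAGLU) with all libraries and between -0.37 (GAA) and 0.15 (SMPD1) without replicate 3, and none was called in either fit. ASAH1 had no overlap, at 134, 145 and 132 CPM in the clones, against 174, 171 and 148 CPM untreated (-0.26 ± 0.12, edgeR adjusted p = 0.750), or -0.33 ± 0.07 without replicate 3 (adjusted p = 0.0809). Of the transporters, NPC1 stood at -0.06 ± 0.28 with all libraries and at -0.32 ± 0.09 without replicate 3 (adjusted p = 0.162), and MCOLN1 at 0.29 ± 0.21 and 0.40 ± 0.15. The 4 pump subunits lay between -0.01 and 0.45, with ATP6V0D1 highest at 102, 100 and 138 CPM in the clones, against 69.9, 69.7 and 109 CPM untreated. Without replicate 3 its fold change was 0.70 ± 0.15 (edgeR adjusted p = 0.0872). TFEB and TFE3 lay at -0.14 ± 0.16 and -0.22 ± 0.16 with all libraries, and at 0.01 ± 0.09 and -0.28 ± 0.14 without replicate 3. CTSL, LAPTM4B and CD68, the macrosialin of macrophages, had at most 3 counts in any deep library and were not tested.

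Of the 133 wider genes 130 were tested in the clones, and edgeR called 0 of them with all libraries. At an unadjusted p of 0.05 there were 4 higher and 9 lower, where 2.22% of all genes were higher and 4.70% lower. DESeq2 called 1 higher and 5 lower, and 60 higher and 255 lower of all 16152 genes. The smallest p belonged to SQSTM1 (p62), the adaptor that links ubiquitin to autophagy, which had 48.8, 50.2 and 44.4 CPM in the clones, against 66.9, 68.1 and 69.7 CPM untreated (-0.51 ± 0.11, adjusted p = 0.311). GABARAPL1, an autophagosome protein, had 1.52, 2.02 and 0.98 CPM in the clones, against 10.4, 9.91 and 2.92 CPM untreated (-2.36 ± 0.55, adjusted p = 0.343). AP3B1, an adaptor subunit that sorts cargo to lysosomes, LITAF, an endosomal membrane protein, the pump subunit ATP6V0A1, and SGSH, which degrades heparan sulfate, followed with log2 fold changes of 0.51 ± 0.13, -2.22 ± 0.55, -0.66 ± 0.17 and -2.44 ± 0.64. Without replicate 3 LITAF lay at -1.72 ± 0.45, ATP6V0A1 at -0.50 ± 0.11 and SGSH at -2.41 ± 0.62, none called. In that fit edgeR called 0.422% of all genes higher and 1.69% lower. It called 2 wider genes lower, SQSTM1 (-0.50 ± 0.08, adjusted p = 0.0423) and GABARAPL1 (-2.75 ± 0.29, adjusted p = 0.0149). The 2 that edgeR called higher were AP3B1 (0.41 ± 0.06, adjusted p = 0.0380) and the pump subunit ATP6V1C1 (0.50 ± 0.08, adjusted p = 0.0428). ATP6V1C1 was singled out for that call, after its values were seen.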

How the data were processed

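The authors deposited read counts per gene for 15 libraries, listed as 17 samples because 3 runs of 1 library share a file. RSEM and STAR 2.5.3a, with the build GRCh37 (hg19), are named per the submitters' processing notes. How reads were counted and whether by strand is not stated in these sources, so reads of overlapping or antisense genes cannot be told apart. Summary lines that name no gene stayed out of library sizes and tests. They held 27.3% to 29.7% of a deep library and 60.9% to 70.2% of a shallow one. Names and transcript numbers came from GENCODE 29 and a gene name table.

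Tests used edgeR 4.0.16 in R 4.3.3 on the groups compared: TMM scaling, filterByExpr, robust quasi-likelihood fits, two-sided tests, and Benjamini-Hochberg adjustment over all genes kept, with a threshold of 0.05. SEs are the log2 fold change over the square root of F. The fit was also run on simulated data in which few genes changed and all genes shared the same spread. In Karpas-422 71.4% of genes were called, and untreated WSU-DLCL2 holds a library that stands apart. That run therefore does not vouch for the fit in these comparisons. DESeq2 1.42.0, other scalings, no filter, the replicate number as a block and leaving out each library were alternatives. No pair of replicates was counted as 1 library (lowest chi-square per gene 1.20, over genes of at least 20 counts).

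The listed genes, the wider lists and the tests were chosen with earlier results of these data known. Values per library are given for LAMP3, LAPTM5, listed genes with an absolute log2 fold change of at least 1 in Karpas-422 and listed genes with an unadjusted p under 0.05 in the clones; those of ASAH1, ATP6V0D1 and CTSZ in the clones were added after they were seen. Of the wider lists up to 6 genes per direction of at least 10 CPM in Karpas-422 are named by fold change, and 6 by p in the clones. Counts are of reads, not molecules, so limits from them cover counting error only.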

Additional observations from a re-analysis of the deposited data

How the results depend on the processing

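LAMP3 stayed between -5.11 and -4.65 and LAPTM5 between -3.33 and -2.87 over the 11 alternatives in Karpas-422. Scaling by library sizes alone gave 2290 genes, 5 listed and 12 wider genes called lower and 14 listed genes called higher, and turned LAMP2 (0.18), NAGLU (0.094) and LAMP1 (0.36), as well as TFE3 (0.36), ASAH1 (0.22) and PSAP (0.19), which were not called in either. With DESeq2 size factors in edgeR, ASAH1 and PSAP were called lower. TMM factors were 1.15 to 1.16 with A-485 and 0.84 to 0.91 untreated, so leaving them out moves each fold change by nearly the same amount. The median of all genes moved from 0.08 to 0.49 and that of the listed genes to 0.36. Which scaling is nearer the true levels was not tested. Leaving out each library gave 7907 to 8840 genes called, 4158 to 4714 higher and 3743 to 4126 lower, with 6 to 9 listed genes higher, 8 to 11 lower, and 50 to 53 wider genes higher and 26 to 28 lower. In the clones, no filter gave 20 genes (1 higher, 19 lower) with 1 listed gene lower, and DESeq2 gave 315 (60 higher, 255 lower), with 3 listed genes lower and 1 wider gene higher and 5 lower; the cause was not tested. Leaving out each library gave 0 to 351 genes, 0 to 70 higher and 0 to 281 lower, with 0 to 1 listed genes lower, 0 higher, and 0 to 2 wider genes in each direction; the largest counts came without untreated replicate 3. Genes not called before or after also changed sign when single libraries were left out: TFE3 (0.10 without A-485 replicate 2) and CTSH (-0.15 without untreated replicate 3) in Karpas-422, and in the clones CTSA, CTSD, CTSZ, NPC1, NPC2, TPP1, GAA, HEXA and ATP6AP1, with LAPTM5, LIPA, NAGLU, TFEB, SMPD1, GUSB and ATP6V1H without untreated replicate 3. The replicate numbers do not pair the libraries (same-number correlations of 0.02, 0.06 and -0.04 in Karpas-422 and 0.10, 0.03 and 0.23 in the clones); with the number as a replicate block 8250 genes were called in Karpas-422 and 0 in the clones. Depth limits the genes of a few reads per shallow library, TPP1, GAA, LIPA and CLN3 among them.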
